A study of Mus musculus with 14 samples.

Results

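MIR elements (mammalian-wide interspersed repeats) are short interspersed elements (SINEs), copies of a tRNA-derived sequence that spread early in mammalian evolution with the help of the L2 family of long interspersed elements (LINEs). Their copies are old and have drifted apart, unlike the rodent SINE families B1 (listed under the family name Alu), B2 and B4, which are younger. Copies of MIR have been described as a source of regulatory DNA in blood and other cells. Open chromatin was mapped by ATAC-seq, which tags DNA open to the Tn5 transposase. Of the 92842 peaks of open chromatin in the merged list, 580 were annotated as lying in a MIR element (0.625%, exact 95% interval 0.575 to 0.678). They were chosen by that annotation alone, which gives the element, its class SINE and its family MIR.

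The libraries came from adult wild-type C57BL/6 mice of 8 to 12 weeks, with no treatment named. Multipotent (MPP), common myeloid (CMP), common lymphoid (CLP), granulocyte-macrophage (GMP), megakaryocyte-erythroid (MEP) and B cell (ProB) progenitors were sorted from bone marrow and T cell progenitors (ProT) from thymus, each for 2 libraries, 14 in all. The list merges the 7 cell types and carries no value per library or cell type. Cell types and replicate libraries were therefore not compared, depth is unknown, and the sorted populations were not checked against their markers.

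A repeat was named only for peaks in introns or intergenic sequence, so MIR copies at promoters or in exons are not among the 580. For this reason the MIR peaks were compared with other intron and intergenic peaks only: 60706 with no repeat named, 3139 in Alu, B2 and B4 SINEs, and 480 in L2 LINEs. Of the 75528 intron and intergenic peaks of all kinds, the MIR peaks made up 0.768% (0.707 to 0.833), and of the 3847 SINE peaks 15.1%. MIR thus held nearly as many peaks as Alu (581), and fewer than B4 (853) and B2 (1705). How much of the genome each family covers was not used here, so these counts do not say whether a family is open more often than its length would give.

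The sequence of the DNA is shown for 4 MIR peaks, those with at least 100 bases inside a window of 300 bases around a gene start of the RefSeq sequence table (GRCm38.p6, whose primary assembly is mm10). The windows reach from 250 bases before to 50 bases after the start. Each sequence is the part of the window inside the peak, 5′ to 3′ on the strand of that start. Capitals mark matches, on either strand, to AGATAA as letters of GATA factors and TGTGGT as letters of Runx factors. The first 3 hold the peak centre, the point at which the list names the element. The fourth is the end of a peak upstream of Lmo2, beyond its centre, and may lie outside the MIR copy.

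Nek6 intron 1 (MIRb), chr2:38533388-38533687, minus strand: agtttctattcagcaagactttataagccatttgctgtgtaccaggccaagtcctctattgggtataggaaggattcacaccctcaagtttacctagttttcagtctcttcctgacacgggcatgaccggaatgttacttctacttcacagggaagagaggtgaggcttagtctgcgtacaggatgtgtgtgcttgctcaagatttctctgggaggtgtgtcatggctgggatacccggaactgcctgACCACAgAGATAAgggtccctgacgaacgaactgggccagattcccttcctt

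Upstream of Kcng1 (MIRb), chr2:168407426-168407725, plus strand: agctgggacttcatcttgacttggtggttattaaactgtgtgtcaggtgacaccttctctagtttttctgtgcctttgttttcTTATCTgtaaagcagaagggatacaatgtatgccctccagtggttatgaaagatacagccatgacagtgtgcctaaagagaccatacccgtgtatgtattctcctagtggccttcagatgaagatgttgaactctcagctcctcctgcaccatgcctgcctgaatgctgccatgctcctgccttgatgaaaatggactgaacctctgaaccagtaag

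Downstream of Tbc1d30 (MIR), chr10:121242730-121243029, plus strand: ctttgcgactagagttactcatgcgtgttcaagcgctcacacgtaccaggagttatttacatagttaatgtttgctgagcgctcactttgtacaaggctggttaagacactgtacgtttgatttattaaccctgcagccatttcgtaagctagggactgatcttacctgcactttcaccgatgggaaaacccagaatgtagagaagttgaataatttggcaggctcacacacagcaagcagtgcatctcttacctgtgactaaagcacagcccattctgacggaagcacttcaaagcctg

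Upstream of Lmo2 (MIRb), chr2:103935953-103936083, plus strand: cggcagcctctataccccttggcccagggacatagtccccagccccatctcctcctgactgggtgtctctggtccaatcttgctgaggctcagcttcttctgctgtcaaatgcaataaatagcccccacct

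In the Nek6 peak a Runx match and a GATA match stood 1 base apart, and the Kcng1 peak held a single GATA match. The Tbc1d30 and Lmo2 sequences held no match. Also searched on both strands were AGGAAGT for ETS factors, CAGCTG for E proteins, TGACTCA for AP-1 and GTTCNANNC for the B box of tRNA promoters, none of which matched in the 4 sequences. No motif contains another. Of all 32851 windows in the table, 11.2% held AGATAA, 16.8% TGTGGT, 9.35% AGGAAGT, 16.3% CAGCTG, 5.20% TGACTCA and 9.32% the B box letters. Matches of letters at these rates describe the sequences and are no evidence of a bound factor.

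All 5 MIR peaks that touched such a window did so at the start of a long noncoding RNA gene: Gm35808 in the Nek6 peak, Gm33359 in the Kcng1 peak, Gm35404 in the Tbc1d30 peak, Gm39896 in the Lmo2 peak and Gm51682 in a peak 36.1 kb from B930092H01Rik. In the deposited list these starts do not count as TSSs, and the same peaks stand 21.6 kb (Nek6), 138 kb (Kcng1), 68.4 kb (Tbc1d30) and 22.2 kb (Lmo2) from the nearest one. A repeat was named only outside the promoters of that list, so starts known to it were largely left out beforehand. The kind of gene was not compared with the other classes, so it is not shown to be particular to MIR. The share of MIR peaks with such a start was 0.862% (0.280 to 2.00), that of peaks without a repeat 2.70% (2.57 to 2.83), of the other SINEs 0.350% (0.175 to 0.626) and of L2 1.46% (0.588 to 2.98). The class without a repeat holds 1897 peaks annotated as CpG islands and the MIR class none, so these shares are not like for like. They were not tested.

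MIR peaks lay closer to other peaks than the 3 comparison classes did. The median distance from a MIR peak to the nearest other peak was 3489 bp, centre to centre, with quartiles of 1573 and 7497 bp. It was 4427 bp for peaks without a repeat, 4538 bp for the other SINEs and 4214 bp for L2. Another peak lay within 5 kb of 357 of the 580 MIR peaks (61.6%, 57.5 to 65.5), against 53.7% (53.3 to 54.0) of peaks without a repeat, 52.6% (50.8 to 54.3) of the other SINEs and 53.3% (48.8 to 57.9) of L2. Fisher's exact test (two-sided, Benjamini-Hochberg adjustment over 15 tests) gave adjusted p = 0.00069, 0.0005 and 0.0218 for these differences. Peaks of 1 region are not independent of each other, so these p-values cover counting error only and are likely too small. Within 2 kb the difference was not detectable, with 30.2% of MIR peaks against 27.5%, 26.7% and 26.9% (adjusted p from Fisher's exact test 0.377, 0.352 and 0.411). Another setting kept only the first peak of each chain of peaks of a class with gaps of at most 50 kb. The share within 5 kb was then 60.8% of MIR peaks against 27.1% of peaks without a repeat. A kept peak has no peak of its class within 50 kb before it. In the dense class without a repeat this lowers the share by construction, so the wider difference is no support.

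**Figure D1:**
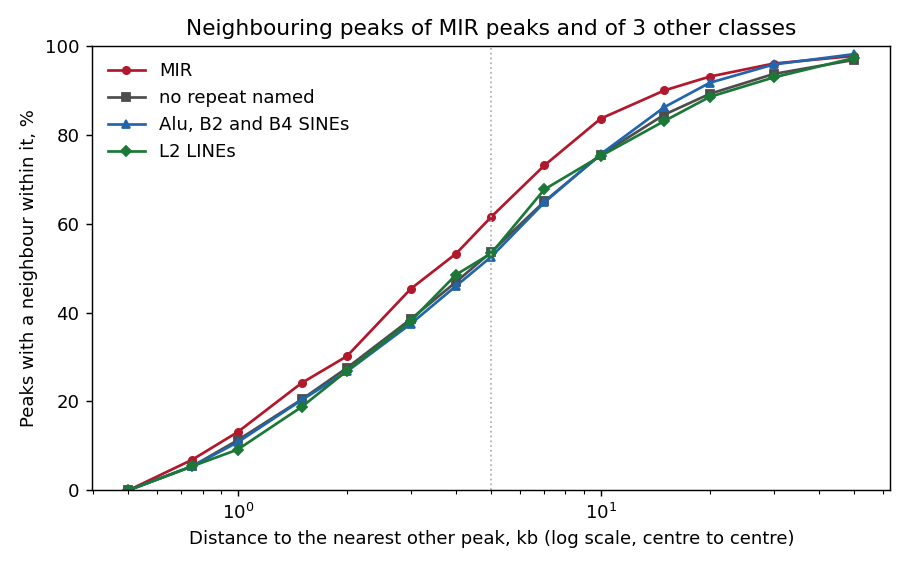
Share of peaks (%) that have another peak within the distance on the x axis (kb, log scale), for MIR peaks and the 3 comparison classes; the dotted line marks 5 kb. The MIR curve runs above the other 3 at 5 kb (61.6% against 52.6% to 53.7%) and at 10 kb (83.6% against 75.2% to 75.6%).

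The closeness was clearest in introns. Of the intronic MIR peaks, 64.8% had a neighbour within 5 kb, against 55.6% of intronic peaks without a repeat, 51.1% of those in other SINEs and 51.4% in L2 (adjusted p from Fisher's exact test 0.00448, 7.8e-05 and 0.00454). Of the intergenic MIR peaks 57.4% had one, against 51.4%, 54.4% and 55.5%, and none of these 3 differences passed the threshold (adjusted p 0.223, 0.673 and 0.823). Whether introns and intergenic sequence differ from each other in this was not tested. The division by place was made with the data in view. By place, the MIR share was 70.7% (62.4 to 78.1) in first introns, 60.3% (52.9 to 67.4) in later introns and 57.4% (51.1 to 63.6) between genes. First introns were also highest for peaks without a repeat (65.0%, then 50.4% and 51.4%) and for other SINEs (61.7%, then 46.2% and 54.4%). For L2 the shares were 55.4%, 49.4% and 55.5%. The MIR interval in first introns holds the 65.0% of peaks without a repeat. Over 10 kb from a TSS, 56.8% of MIR peaks had such a neighbour, against 48.2% of peaks without a repeat (adjusted p from Fisher's exact test 0.00401), 46.7% of other SINEs (0.0031) and 48.2% of L2, where the difference no longer passed (0.0757).

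Most of the neighbours themselves were intronic or intergenic peaks. Of the 357 neighbours within 5 kb, 174 were intronic (48.7%), 132 intergenic (37.0%) and 34 at a promoter (9.52%, 6.69 to 13.1). The intronic share was 44.8% among the neighbours of peaks without a repeat, 46.1% for other SINEs and 43.0% for L2. The promoter share was 9.61%, 10.4% and 8.59% in the same order. In 56 cases (15.7%, 12.1 to 19.9) the neighbour also lay in a repeat. That share was 15.1% for peaks without one, 19.7% for other SINEs and 13.7% for L2. These neighbour shares were not tested. The median distance from one MIR peak to the next on its chromosome was 2129385 bp, and 9 of 560 such steps were within 10 kb. MIR peaks were 0.625% of all peaks, and whether they neighboured each other more or less often than that share gives was not tested. A MIR peak had a median of 9 other peaks within 50 kb (quartiles 5 and 13), against 8 for peaks without a repeat and for other SINEs, and 7 for L2.

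Introns held 324 MIR peaks (55.9%, 51.7 to 60.0) and intergenic sequence 256. These shares were not told apart from the 53.1% of peaks without a repeat, 56.2% of other SINEs and 52.7% of L2 (adjusted p from Fisher's exact test 0.335, 0.955 and 0.483). Within genes, MIR peaks lay more often in the first intron, which in many genes is long and rich in regulatory DNA. There lay 140 of the 324 intronic MIR peaks (43.2%, 37.7 to 48.8), against 35.6% (35.1 to 36.1) of intronic peaks without a repeat, 31.5% (29.4 to 33.8) in other SINEs and 32.8% (27.1 to 39.0) in L2. Fisher's exact test gave adjusted p = 0.0191, 0.0005 and 0.0311. The second intron held 48 MIR peaks (14.8%), the third 38 (11.7%), introns 4 to 10 together 66 (20.4%) and introns beyond the tenth 32 (9.88%). The hosts had a median of 10 introns, against 11 for peaks without a repeat, 12 for other SINEs and 11 for L2.

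First-intron peaks lie near the start of their gene, at a median of 8513 bp from the nearest TSS for MIR and 8430 bp for peaks without a repeat. Among intronic peaks over 10 kb from a TSS, 30.6% of MIR peaks were in a first intron, against 23.7%, 24.0% and 24.6% in the 3 classes, and no difference passed the threshold (adjusted p from Fisher's exact test 0.0785, 0.114 and 0.351). Intron length was not used here, and its part in the result was not tested.

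**Figure D2:**
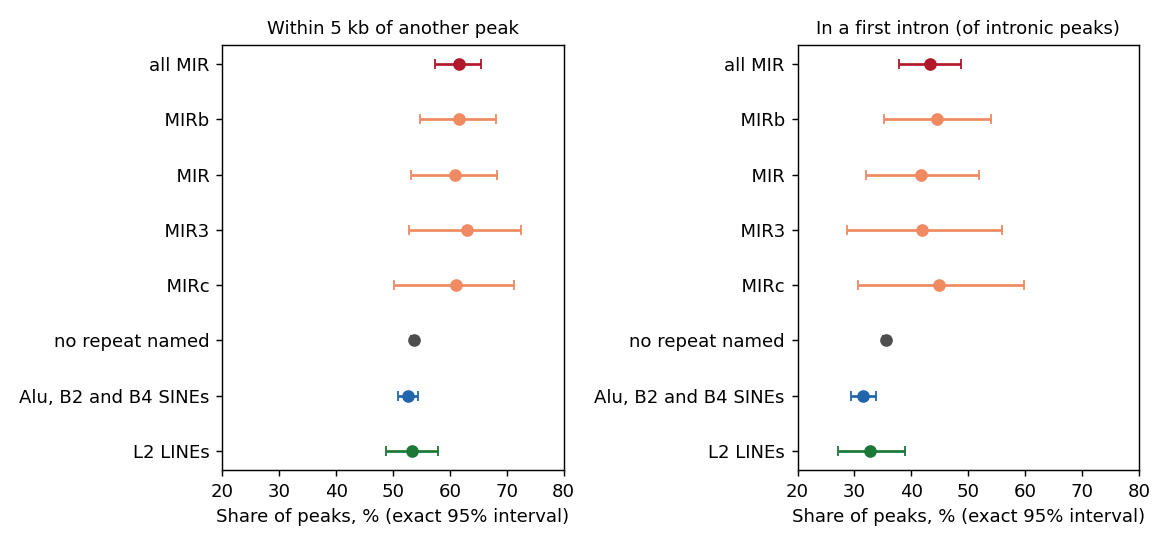
Share of peaks within 5 kb of another peak (left, %) and share of intronic peaks in a first intron (right, %), for all MIR peaks, each MIR element name and the 3 comparison classes; bars are exact 95% intervals. All 4 element names sit near the value of all MIR peaks, between 60.9% and 63.0% on the left and between 41.7% and 44.9% on the right.

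The 580 peaks carried 4 element names: MIRb 216 (37.2%), MIR 174 (30.0%), MIR3 100 (17.2%) and MIRc 90 (15.5%). Neighbours within 5 kb were found for 61.6% of MIRb, 60.9% of MIR, 63.0% of MIR3 and 61.1% of MIRc peaks. First introns held 44.4% of the intronic MIRb, 41.7% of the MIR, 41.8% of the MIR3 and 44.9% of the MIRc peaks. In both measures the 4 names lay well inside each other's intervals. Distance to the nearest TSS varied more, with a median of 17040 bp for MIR, 21884 bp for MIRb, 29362 bp for MIRc and 35331 bp for MIR3. The share within 10 kb was 33.9% (26.9 to 41.5) for MIR and 22.0% (14.3 to 31.4) for MIR3, and these intervals overlap.

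Over all names, 166 MIR peaks lay within 10 kb of a TSS (28.6%, 25.0 to 32.5), against 26.3% of peaks without a repeat, 31.6% of other SINEs and 26.5% of L2. None of these differences passed the threshold (adjusted p from Fisher's exact test 0.335, 0.335 and 0.612). The median distance was 22759 bp, and the peaks reached from 626 bp to 899431 bp. Of the MIR peaks 45.5% lay 10 to 50 kb away. Over 100 kb away were 60 (10.3%, 7.99 to 13.1), against 15.1% (14.8 to 15.4) of peaks without a repeat, 17.1% (13.8 to 20.8) of L2 and 7.30% (6.41 to 8.26) of other SINEs, which was not tested. Intergenic MIR peaks were mostly upstream of the nearest TSS, 166 of 256 (64.8%), close to the 65.9% of peaks without a repeat.

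**Figure D3:**
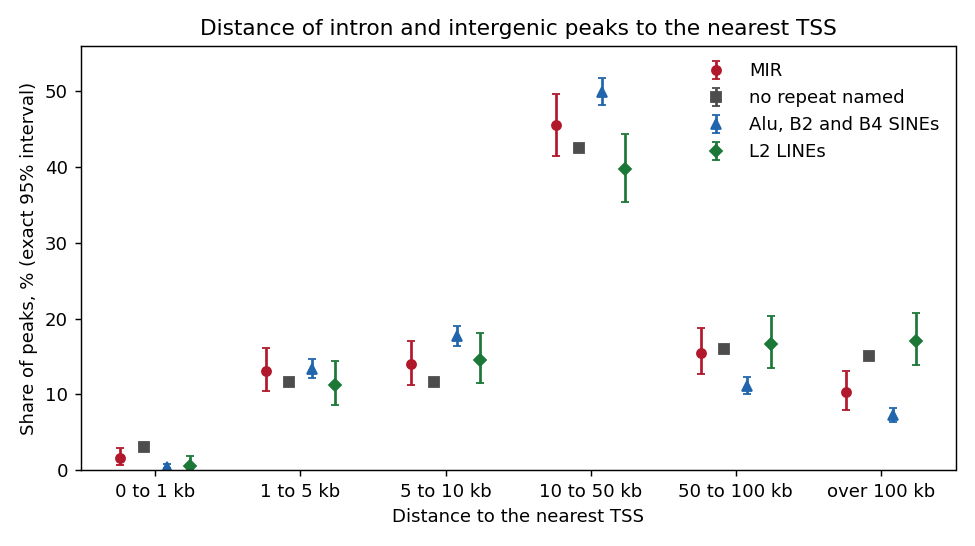
Share of peaks (%, exact 95% intervals as bars) in 6 ranges of distance to the nearest TSS, for MIR peaks and the 3 comparison classes. In each class the largest share lies 10 to 50 kb away (45.5% of MIR peaks), and over 100 kb the MIR share (10.3%) lies between that of the other SINEs (7.30%) and that of L2 (17.1%).

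The 10 MIR peaks closest to a TSS were all intronic and downstream of it. The nearest stood 626 bp inside Prkaa2, a catalytic subunit of the energy sensor AMPK, at chr4:105109023-105109521. Next came first-intron peaks of Nrros, a regulator of TGF-beta and reactive oxygen in myeloid cells, at 754 bp, and of Lrsam1, a ubiquitin ligase, at 777 bp. Also among the 10 were Ocrl, a phosphoinositide phosphatase, at 827 bp in intron 2 of 23, and Celf6, an RNA-binding protein, at 895 bp.

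The nearest TSS belonged to 543 genes, of which 508 had 1 MIR peak, 33 had 2 and 2 had 3. Coding genes were nearest to 499 of the 580 peaks (86.0%). Counted over peaks, the nearest gene of a MIR peak had a median of 10 peaks in all, against 9 for peaks without a repeat. A gene counts here once for each of its peaks in the class. Genes with at least 20 peaks were nearest to 16.6% of the MIR peaks (13.6 to 19.8), against 17.3% of peaks without a repeat. The share was 11.3% for the other SINEs (10.3 to 12.5) and 19.2% for L2. For 8 genes the only peak was a MIR peak. The nearest TSS is not always that of the gene around the peak: of the 321 intronic MIR peaks whose host transcript could be matched, 73 (22.7%, 18.3 to 27.7) had another gene as the nearest. The 3 MIR peaks given to Clip4, for instance, all lay in introns 4, 5 and 9 of Alk, a receptor tyrosine kinase, and the MIR peak given to Themis lay in intron 13 of Ptprk, a receptor phosphatase, 170 kb away. Among peaks without a repeat the share with another nearest gene was 26.6% (26.1 to 27.1).

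Hivep3, a large zinc finger protein of lymphoid and bone cells, had 3 MIR peaks, all in its own intron 1 of 8, with 2 MIR copies at chr4:119887500-119887998 and chr4:119894914-119895412, 7.41 kb apart, and a MIRc copy at chr4:119979885-119980383. Hivep3 had 29 peaks in all. In Arhgef3, 2 MIRb peaks stood 6.67 kb apart in intron 1 (chr14:27341397-27341895 and chr14:27348065-27348563). St3gal1, a sialyltransferase of blood cell surfaces, had 2 in introns 1 and 2, among 29 peaks. Nek6, a mitotic kinase, had 2 in intron 1, the first of them the sequence shown above. Cnr2, a cannabinoid receptor of immune cells, had MIR peaks 3.48 kb upstream and 3.41 kb downstream of its TSS.

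The closest MIR peaks of the list were 2 MIRb peaks 1.20 kb apart, upstream of the ribosomal protein gene Rpl11 (chr4:136069990-136070488 and chr4:136071193-136071691). A MIR3 and a MIR peak 1.77 kb apart were given to Mylk4, over 100 kb away (120 kb for the nearer peak). Upstream of Hey1, a transcriptional repressor in the Notch pathway, MIRb and MIR3 peaks lay 4.80 kb apart. They stood 95.1 and 99.9 kb from its TSS.

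Among signalling genes with 2 MIR peaks were Cxcr4, the receptor for the marrow chemokine Cxcl12, Tgfbr2, a TGF-beta receptor, and Pim1, a kinase induced by cytokines. The Cxcr4 peaks, both MIRb, lay 15.9 kb upstream and 39.5 kb downstream of its TSS, 2 of its 47 peaks. Both Tgfbr2 peaks, of MIR3, lay upstream at 58.3 and 69.9 kb, and those of Pim1 upstream at 47.1 and 59.0 kb. All 6 peaks were intergenic.

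**Figure D4:**
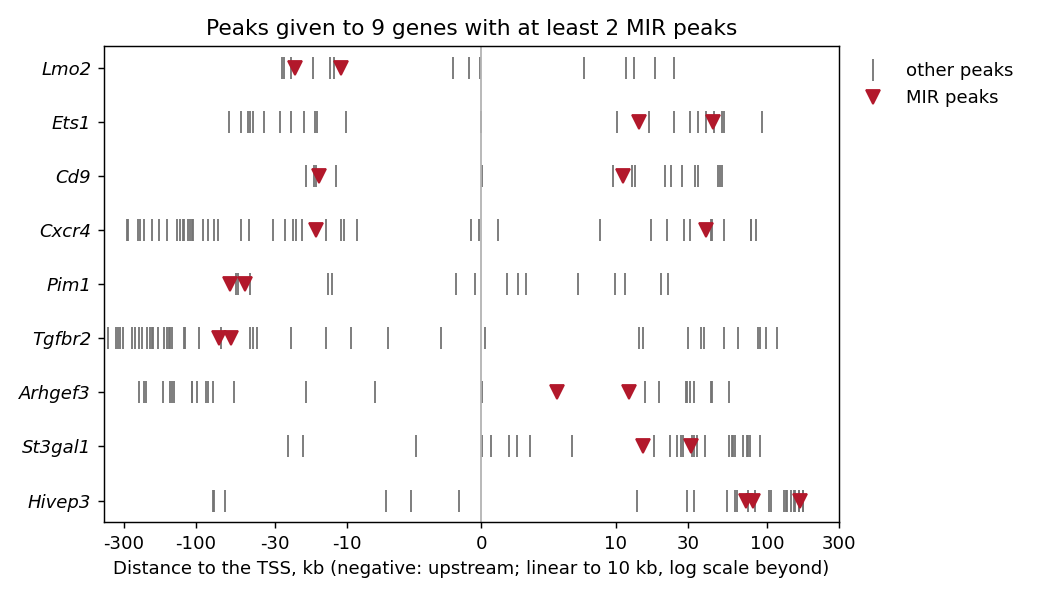
Peaks given to 9 genes with at least 2 MIR peaks, by signed distance in kb to the TSS to which the MIR peaks are referred (negative is upstream; linear to 10 kb and on a log scale beyond). Red triangles are MIR peaks and grey ticks other peaks; the Lmo2 MIR peaks stand 22.2 and 10.9 kb upstream, while the 3 of Hivep3 stand 73.1 to 165 kb downstream.

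Known blood genes had MIR peaks in small numbers. In 6 lists of 124 genes (stem and progenitor, erythroid, megakaryocyte, granulocyte and macrophage, lymphoid and B cell, T cell), 12 genes were nearest to 15 MIR peaks. That is 1.30% (0.732 to 2.14) of the 1150 intron and intergenic peaks of these genes, an interval that holds the 0.768% of all intron and intergenic peaks. Of all 19105 genes with a peak, 543 were nearest to a MIR peak, with no allowance for how many peaks each gene has. In the stem and progenitor list 3 of 20 genes had a MIR peak, with 4 peaks in all. These were 1.45% (0.396 to 3.67) of its 276 intron and intergenic peaks. Lmo2, a bridging protein of the Tal1 and GATA complexes, had 2 MIRb peaks, at chr2:103935585-103936083 and chr2:103946822-103947320, 22.2 and 10.9 kb upstream, with the nearest other peak 1.40 and 1.25 kb away. The first had 25 other peaks within 50 kb, the most of any MIR peak together with 1 of St3gal1. Erg, an ETS factor of stem cells, had a MIRc peak in intron 2 (chr16:95421356-95421854), and Hlf, a bZIP factor of stem cells, a MIRb peak in its intron 2, 9.59 kb from the TSS (chr11:90381080-90381578).

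In the lymphoid and B cell list 3 of 24 genes had 4 MIR peaks, 1.43% (0.391 to 3.62) of its 280 intron and intergenic peaks. Ets1, an ETS factor of lymphocytes, had a MIRb peak in intron 1 and a MIR3 peak in intron 6 (chr9:32710076-32710574 and chr9:32739928-32740426). Bcl11a, a zinc finger factor of lymphoid cells and of globin switching, had a MIR3 peak 178 kb downstream. Dntt, the polymerase that adds nucleotides at antigen receptor joints, had a MIR3 peak 2.53 kb upstream (chr19:41026496-41026994). The T cell list had 2 MIR peaks in 22 genes, that of Themis and a MIRc peak 67.2 kb downstream of Cd28, a costimulatory receptor. Neither lay within 50 kb of the TSS, and the 2 were 1.18% (0.143 to 4.19) of the 170 intron and intergenic peaks of the list.

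The megakaryocyte list had 3 MIR peaks in 2 of 18 genes, 1.76% (0.365 to 5.07) of its 170 intron and intergenic peaks. Cd9, a tetraspanin, had a MIR3 peak in intron 1 (chr6:125483325-125483823) and a MIRb peak 15.2 kb upstream (chr6:125509729-125510227), and Itgb3, the platelet integrin beta chain, a MIR3 peak in intron 2 (chr11:104630151-104630649). In the granulocyte and macrophage list 2 of 20 genes had 1 each, both growth factor receptors: Csf2rb, the beta chain shared by the GM-CSF and IL-3 receptors, in intron 1 (chr15:78332908-78333406), and Csf3r, the G-CSF receptor, 5.58 kb upstream (chr4:126018829-126019327). Both peaks lay in the element named MIR and were 1.69% (0.206 to 5.99) of the 118 intron and intergenic peaks of the list. The erythroid list had no MIR peak among 136 intron and intergenic peaks, which allows a share of up to 2.21%. The lists of other blood and stromal cells (0 of 129, up to 2.33%), housekeeping genes (0 of 77, up to 3.90%) and unrelated tissues (0 of 40, up to 7.5%) had none either. The limits for 0 are 3 counts of the total. The exact upper limits, of the kind given for the other lists, are 2.68%, 2.82%, 4.68% and 8.81% in the same order. All these limits lie above 0.768%, and the intervals of the lists with MIR peaks hold it, so the lists do not show a difference.

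By chromosome, MIR peaks made up 0.464% to 1.11% of the intron and intergenic peaks of the autosomes (mean 0.747% ± 0.164, SD, n = 19 chromosomes). Chromosome 2, which holds Lmo2 and Nek6, was highest with 66 MIR peaks (1.11%, 0.857 to 1.41), and chromosome 16 lowest with 13 (0.464%, 0.247 to 0.792). Differences between autosomes were not tested. The X held 12 MIR peaks, 2.07% of them (1.07 to 3.59), against 1.82% of peaks without a repeat, 2.23% of other SINEs and 2.5% of L2 (adjusted p from Fisher's exact test 0.787, 1 and 0.787). With the first peak kept of each 50 kb chain, the X held 2.01% of MIR peaks against 4.22% of peaks without a repeat. This difference passed the threshold (adjusted p from Fisher's exact test 0.0146), in the other direction from the main one, which had not passed. The setting left 548 of 580 MIR peaks but 10085 of 60706 peaks without a repeat. In that dense class it keeps only the outermost peak of long chains, so it does not show that MIR peaks are fewer on the X.

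**Figure D5:**
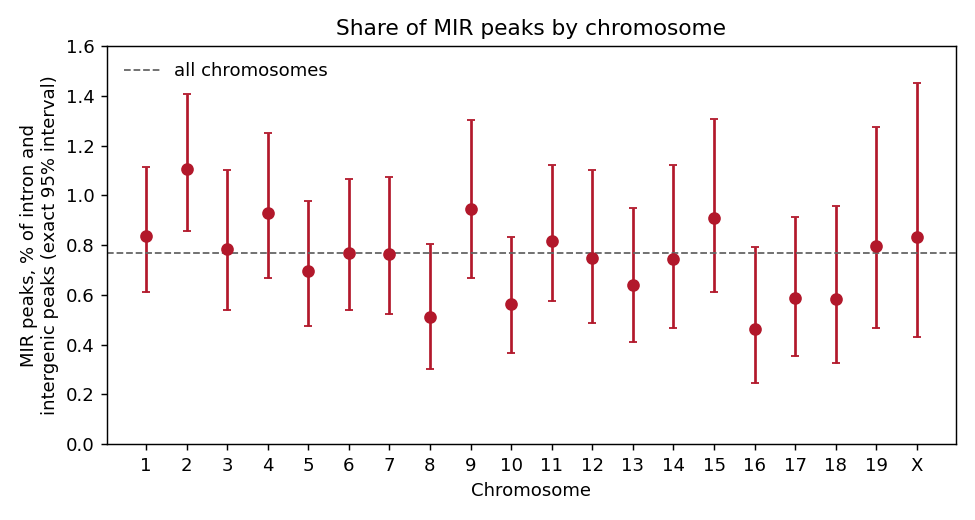
MIR peaks as a share (%) of all intron and intergenic peaks of each chromosome, with exact 95% intervals; the dashed line is the share over all chromosomes (0.768%). Chromosome 2 is highest at 1.11%, with an interval above the line, and the intervals of all the other chromosomes cross it.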

How the data were processed

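ATAC-seq libraries of 7 sorted mouse cell types, 2 of each, stand behind 1 deposited list of merged peaks, which gives each peak's position, annotation, nearest TSS and signed distance in bp. The authors annotated it with annotatePeaks on mm10, per the file header, with HOMER 4.10.2 per the submitters' processing notes. The aligner, peak caller, calling threshold and way of merging were not stated in the sources used here. Each peak is 499 bp wide and has the peak score 0, which was not used.

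MIR peaks are those whose detailed annotation ends in the SINE class and MIR family. The 5 measures were compared with 3 classes of peaks by Fisher's exact test (two-sided, scipy 1.17.1, Python 3.11.15). Its p-values were adjusted over the 15 tests by the Benjamini-Hochberg method with a threshold of 0.05. The test was also run on simulated counts, drawn independently. They hold no grouping of peaks, so they cannot show its effect on the p-values. Class intervals are exact (Clopper-Pearson, 95%) and, like the limits for a count of 0 (3 counts of the total), cover counting error only. Distances run from peak centres. Host transcripts were matched to the RefSeq gene table of GRCm38.p6, and sequences come from its table of gene starts. Named genes were the 20 with the most MIR peaks with ties (35 genes), the 3 leading genes of each list, the genes of the 10 MIR peaks closest to a TSS and of the 5 closest neighbouring MIR peaks; genes of MIR peaks at RefSeq gene starts were added after their values were seen. Members and lists were chosen with earlier results of these data known.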

Additional observations from a re-analysis of the deposited data

How the results depend on the processing

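Differences below are in percentage points, MIR peaks minus the class named. With the first peak kept of each 50 kb chain of a class, the first-intron difference from L2 no longer passed the threshold (8.23). The 5 kb neighbour difference from peaks without a repeat (7.90) grew to 33.7. The same setting brought differences from peaks without a repeat past it for introns (9.20) and for 10 kb of a TSS (6.63), and turned that for the X chromosome (0.247) to -2.22, which passed it in the opposite direction (adjusted p from Fisher's exact test 0.0146). In the dense class without a repeat it keeps only the outermost peak of long chains, by its construction. With 20 kb of a TSS the difference from other SINEs passed (-7.99). Within 2 kb of another peak the 3 differences did not pass (2.63 from peaks without a repeat, 3.44 from other SINEs, 3.30 from L2). The following alternatives were added after seeing the data. Without CpG island peaks the first-intron difference from peaks without a repeat (9.41) still passed. That for 10 kb of a TSS (3.76) still did not. Over 10 kb from a TSS the first-intron differences (6.84, 6.60 and 6.00) and the 5 kb difference from L2 (8.60) did not pass. Between genes the 5 kb differences did not pass (6.02, 2.99 and 1.92). The causes were not tested. For neighbours within 5 kb MIR was higher in 25 of 25 alternative comparisons and passed in 18. For first introns it was higher in 16 of 16 and passed in 12. These include 6 that repeat the main values, since every MIR peak carries 1 of the 4 names. The 18 also include the 50 kb chain setting against peaks without a repeat, whose difference is widened by construction. All the alternatives reuse the same MIR peaks, so the counts are no independent support.

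MIR peaks were 0.768% of intron and intergenic peaks, against 0.625% of all. Within 50 kb of a TSS, 20 genes had at least 2 MIR peaks, against 35 at any distance, and the T cell list had 0, against 2. The X chromosome could not be compared on autosomes alone. No paired analysis was possible because the list holds no values per library. Depth is unknown.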

Other observations

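The surroundings of the MIR peaks ranged from dense to empty. With 21 or more other peaks within 50 kb, besides Lmo2 and St3gal1, were MIR peaks given to Gm10804 (24), Aff1, a subunit of the super elongation complex (23), and Akna, a centrosomal protein of progenitors and lymphocytes, Sla, an adaptor that dampens antigen receptor signals, Gpr18, a receptor of lymphocytes, Gm4262 and Adamtsl4 (21 each). At the other end, 13 MIR peaks (2.24%) had no other peak within 50 kb. These genes were chosen after their values were seen, and no test was made of them.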
